A study of Homo sapiens with 8 samples.

Results

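The genes described are 8 enzymes of haem synthesis and 1 mitochondrial iron importer: ALAS1, ALAS2, ALAD, UROS, UROD, CPOX, PPOX, FECH and SLC25A37, which encodes mitoferrin-1. They were taken by gene name, as the probe sets whose platform annotation names 1 of them alone. All 9 were found, among 19775 genes so named on the array, with 28 probe sets between them, and the probe set of highest mean signal on the log2 scale stood for its gene. The 8 arrays fall in 4 groups of 2, all labelled as HEL, a line from a human erythroleukaemia that carries activated JAK2. CEP701 cells were given 0.5 µM of cep701 (lestaurtinib, an inhibitor of JAK2 and other kinases) for 16 h, and DMSO cells were given the vehicle for 16 h. PRMT5 shRNA cells are a stable line carrying 1 hairpin against the arginine methyltransferase PRMT5 from a lentiviral pLKO vector, and scramble cells carry a scramble shRNA. All cells were grown in RPMI with fetal bovine serum, and the stated aim was to set the drug's expression profile beside that of the knockdown.

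Haem is the iron-containing ring that carries oxygen in haemoglobin and electrons in cytochromes. Its synthesis begins in the mitochondrion, where an ALAS enzyme joins glycine to succinyl-CoA, continues in the cytosol with ALAD, UROS and UROD, and returns to the mitochondrion for CPOX, PPOX and FECH, which inserts the iron that mitoferrin-1 brings in. ALAS1 is the form made in most tissues and is repressed by haem, whereas ALAS2 is the erythroid form, induced by GATA1 and held back in translation when iron is short. Red cell precursors raise the whole pathway as they fill with haemoglobin. The enzyme of the third step is not analysed here.

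Values are MAS5 signals, in which each probe set of an array has 1 number on a linear scale and each array is scaled to a common trimmed mean. Differences are log2 differences of the signal plus 10, fitted over all 8 arrays and 14162 genes with limma, and a gene passed where its Benjamini-Hochberg adjusted p over all these genes was under 0.05. Pearson's r between arrays across the tested genes, which are not independent of each other, was 0.964 to 0.978 within a group, 0.954 to 0.972 between the groups of an arm, and 0.804 to 0.845 between the drug arm and the shRNA arm. PRMT5 stood at 35.2% of the scramble mean on the PRMT5 shRNA arrays, and at 41.7% and 45.8% by its other probe sets. At the brightest, the log2 difference of -1.52 ± 0.35 (SE) did not pass in limma (adjusted p = 0.217). It passed with the shared title suffix of the shRNA arrays as a replicate block (adjusted p = 8.91e-05).

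Some cell type markers set the arms apart, although both are labelled HEL. The summed signal of 8 monocyte and granulocyte markers was 67100 to 101621 on the PRMT5 shRNA arrays and 88985 to 102146 on the scramble arrays, against 7856 to 9156 with CEP701 and 5453 to 5481 with DMSO. MPO, the granule peroxidase of neutrophil precursors, had 10913 and 18281 on PRMT5 shRNA arrays and 16676 and 20593 on scramble arrays, and no more than 63.5 on any drug-arm array. AHSP, the chaperone of alpha globin and an erythroid marker, had 6136 and 1263 on PRMT5 shRNA arrays and 3069 and 1185 on scramble arrays. It had no more than 87.5 in the drug arm. The summed signal of 6 erythroid markers overlapped between the arms, at 13938 to 19329 with PRMT5 shRNA and 15025 to 15069 with scramble. That sum was 12913 to 13083 with CEP701 and 13708 to 15122 with DMSO. Other markers were higher in the drug arm, with GATA1 at 1794 to 2196 there and 1072 to 1430 in the shRNA arm. CD2 had 854 to 1234 and 98.3 to 168 in the same order, and KRT18 1259 to 1385 and 215 to 274. Not every marker of their lists went this way. NKG7, listed with CD2, had 189 to 263 in the drug arm and 2615 to 6310 in the shRNA arm. EPCAM, listed with KRT18, had 23.3 to 49.8 and 484 to 2753 in the same order. The summed signal of 7 megakaryocyte markers was 48396 to 85006 on PRMT5 shRNA arrays and 61931 to 113452 on scramble arrays. It was 12112 to 12198 with CEP701 and 11968 to 12236 with DMSO. The shRNA-arm arrays thus carry markers that are near background on the other arrays of the same labelled line, and every result on them holds for the arrays labelled PRMT5 shRNA and scramble, whatever cells they came from. In such bulk samples, fewer cells of a type and less RNA per cell cannot be told apart. Nothing in the labels says that replicates came from separate cultures, so a p-value here measures the spread between these arrays alone, which may be technical.

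CEP701 was set against DMSO to find the transcripts that the inhibitor changes. ALAD, the enzyme of the second step, rose 2.50-fold and FECH, the enzyme of the last step, rose 2.29-fold, and no member fell past the test. That is 2 of 9 members called higher, where 3.74% of all genes were called higher and 2.04% lower. The median log2 difference over the 9 members was 0.29, against 0.10 over all 14162 genes. By the raw signals the groups did not overlap for 6 members, with ALAD, UROS, PPOX, FECH and SLC25A37 higher on both CEP701 arrays and ALAS1 lower, where 36.3% of all genes were higher and 25.7% lower without overlap. The plot of signals by array shows all 9.

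**Figure D1:**
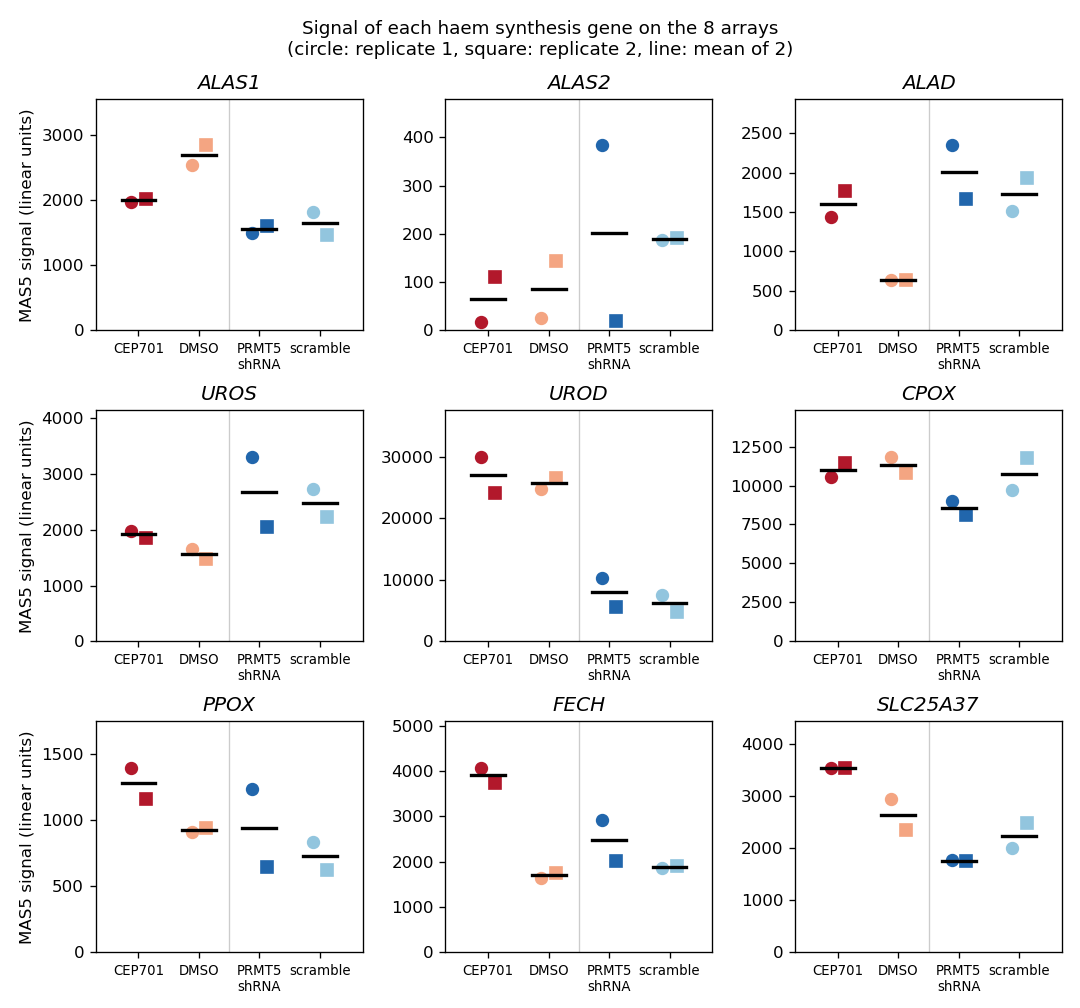
MAS5 signal (linear units, each axis from 0) of the probe set of highest mean signal of each gene on the 8 arrays, with replicate 1 as a circle, replicate 2 as a square and the mean of 2 as a line. FECH and ALAD lie higher on both CEP701 arrays than on both DMSO arrays, UROD lies far lower in the shRNA arm than in the drug arm, and ALAS2 stays at 383 or below on every array.

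At the first step, ALAS1 had signals of 1976 and 2025 on the CEP701 arrays, against 2537 and 2841 on the DMSO arrays. Both treated arrays were below both vehicle arrays, with a log2 difference of -0.42 ± 0.16 (SE; 95% interval -0.78 to -0.06) that did not pass in limma (adjusted p = 0.145). It passed with the shRNA arrays blocked by their suffix (adjusted p = 0.0378) and in a fit of the drug arm alone (adjusted p = 0.0202). Those fits called 22.3% and 22.7% of all genes.

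ALAS2 had signals of 17.4 and 111 on the CEP701 arrays, against 26.0 and 144 with DMSO, on both sides of the median of all signals, 60.0. The groups overlapped and the 2 arrays of each group lay far apart. The log2 difference of -0.37 had a 95% interval of -2.97 to 2.23 (adjusted p = 0.879 in limma), so a change of several fold in either direction was not detectable. Its other probe set exceeded the median of all signals on 1 array and was not tested, with 35.9 and 62.5 on CEP701 arrays and 1.99 and 6.43 on DMSO arrays.

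The stretches before the starts of these genes differ in base composition. The 250 bases upstream of the RefSeq start (GRCh38.p14) are shown for ALAS1 and ALAS2, the housekeeping and erythroid forms of 1 enzyme, with 67.2% and 52.8% of G and C. Capitals mark either a GC box (GGGCGG) or a GATA word (GATAA or GATAG after an A or a T), each on either strand.
ALAS1 (chr3:52197833-52198082, + strand): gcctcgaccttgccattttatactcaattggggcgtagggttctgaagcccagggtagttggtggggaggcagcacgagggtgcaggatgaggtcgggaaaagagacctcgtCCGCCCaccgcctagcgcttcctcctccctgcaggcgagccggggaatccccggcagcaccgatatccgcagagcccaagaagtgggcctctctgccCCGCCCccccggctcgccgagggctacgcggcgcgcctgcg
ALAS2 (chrX:55030978-55031227, - strand): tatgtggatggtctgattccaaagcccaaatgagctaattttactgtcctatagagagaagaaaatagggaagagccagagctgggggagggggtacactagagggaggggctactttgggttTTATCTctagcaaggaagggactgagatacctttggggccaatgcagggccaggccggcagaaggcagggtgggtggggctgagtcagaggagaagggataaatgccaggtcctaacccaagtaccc
ALAS1 had 2 GC boxes and no GATA word, and ALAS2 had 1 GATA word, 127 bases before the start, and no GC box. Of all 35116 promoters of the same length, 42.6% held a GC box and 22.3% a GATA word. The first transcribed bases of ALAS2 also hold the loop letters CAGTGN of an iron-responsive element, the stem-loop that iron regulatory proteins bind, beginning 21 bases after the start. Of all promoters 6.36% had these letters within 50 bases after the start, and ALAS2 was the only member that did among the 7 with an entry. The loop letters are in capitals.
ALAS2 loop (chrX:55030940-55030969, - strand): ttcgttcgtcctCAGTGCagggcaacaggt
A match is a description of the letters and not evidence of binding.

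ALAD joins 2 molecules of aminolevulinate into porphobilinogen. Its signals were 1441 and 1769 on the CEP701 arrays, against 631 and 632 on the DMSO arrays, and the groups were apart by far more than their spread. The mean of 1605 ± 232 with CEP701 and 632 ± 0.0771 with DMSO (SD, n = 2 each) gave a log2 difference of 1.32 ± 0.21 (SE; 95% interval 0.85 to 1.80; limma adjusted p = 0.0131). The 2 DMSO signals differ by less than 1 unit, which such a low number of arrays can give. ALAD's other probe set, which was dimmer, had 182 and 230 on the CEP701 arrays, against 170 and 110 with DMSO. It too was higher without overlap, but its log2 difference of 0.55 did not pass in limma over 26725 probe sets (adjusted p = 0.384).

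FECH, ferrochelatase, completes haem by inserting ferrous iron into protoporphyrin. Its signals were 4075 and 3742 on the CEP701 arrays, against 1646 and 1755 on the DMSO arrays, with means of 3908 ± 236 and 1700 ± 77.2 (SD, n = 2 each). Both treated arrays lay far above both vehicle arrays. The log2 difference was 1.20 ± 0.18 (SE; 95% interval 0.78 to 1.61; limma adjusted p = 0.0117). Each of the other probe sets was higher as well, with 1206 and 1129 on CEP701 arrays and 707 and 656 on DMSO arrays for one (log2 difference 0.77; adjusted p = 0.0600 over all probe sets), and 298 and 293 on CEP701 arrays and 158 and 172 on DMSO arrays for the other (log2 difference 0.81; adjusted p = 0.102). All 3 FECH probe sets, which are not independent of each other, thus had groups that did not overlap, as did 36.3% of all genes in that direction. Of the 3, 1 passed, where 4.78% of all probe sets were called.

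Neither rise kept its call without any 1 of the 4 drug-arm arrays, when a group is left with 1 array assumed to vary like the others. Those fits called far fewer of all genes than the fit of all 8 arrays. The loss is thus not particular to ALAD and FECH. The log2 difference stayed at 1.18 to 1.47 for ALAD and 1.13 to 1.26 for FECH over the 8 fits that each left out 1 array, with limma adjusted p of up to 0.139 and 0.124. Scaling to the poly-A control probe sets, which lowers the median of all genes to -0.40, also ended both calls, with 0.82 for ALAD (adjusted p = 0.0794) and 0.69 for FECH (adjusted p = 0.113). Both calls also ended when the variance trend was left out of limma (adjusted p = 0.0638 for ALAD and 0.0635 for FECH), and ALAD's with the mean of its probe sets (0.94; adjusted p = 0.0553). FECH's ended without probe sets of the _x_at and _s_at kinds, which can match more than 1 transcript (0.77; adjusted p = 0.0598). The ratio of 5' to 3' signal of the actin control, a sign of RNA quality, was 0.116 and 0.161 on CEP701 arrays and 0.199 and 0.198 on DMSO arrays, and the summed signal of 6 measured erythroid markers was 12913 to 13083 on CEP701 arrays and 13708 to 15122 on DMSO arrays. The lower sum came from GFI1B, a repressor of transcription made in erythroid and megakaryocyte cells, with 1453 and 1502 on CEP701 arrays and 3273 and 3747 on DMSO arrays. EPOR, the erythropoietin receptor, and GATA1 were higher on both CEP701 arrays, and TAL1, SLC4A1 and AHSP overlapped. The monocyte and granulocyte sum given above was higher with CEP701, almost all of it from LYZ, lysozyme, with 8863 and 7656 on CEP701 arrays and 5293 and 5252 on DMSO arrays. The part of RNA quality or of these markers in the rises was not tested.

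The upstream stretches of ALAD and FECH are shown because these were the 2 members that passed, with GC boxes and GATA words in capitals as before.
ALAD (chr9:113401285-113401534, - strand): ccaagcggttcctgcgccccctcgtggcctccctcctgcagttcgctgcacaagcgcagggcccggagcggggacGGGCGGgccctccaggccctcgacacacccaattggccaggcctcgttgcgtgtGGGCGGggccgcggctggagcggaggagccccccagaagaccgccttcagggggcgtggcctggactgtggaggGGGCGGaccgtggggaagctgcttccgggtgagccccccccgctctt
FECH (chr18:57586703-57586952, - strand): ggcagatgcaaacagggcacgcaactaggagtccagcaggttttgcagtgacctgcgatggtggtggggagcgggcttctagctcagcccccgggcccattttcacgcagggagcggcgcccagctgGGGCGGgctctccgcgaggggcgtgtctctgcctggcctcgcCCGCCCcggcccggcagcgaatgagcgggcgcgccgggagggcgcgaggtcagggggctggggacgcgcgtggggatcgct
They have 74.0% and 72.4% of G and C. ALAD held 3 GC boxes and FECH 2, and neither stretch held a GATA word. A second ALAD start further downstream, as RefSeq lists it, had 1 GATA word 68 bases before it. No stretch of any member held the STAT word TTCNNNGAA, which 6.57% of all promoters held. The absence of these letters from 250 bases says nothing about the factor.

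SLC25A37, the iron importer of erythroid mitochondria, was read by 10 probe sets. The brightest had 3549 and 3546 on the CEP701 arrays, against 2936 and 2346 on the DMSO arrays. Both CEP701 arrays were higher, with a log2 difference of 0.43 ± 0.17 (SE; 95% interval 0.06 to 0.81) that did not pass in limma (adjusted p = 0.153). It passed with the shRNA block (adjusted p = 0.0388) and in the drug arm alone (adjusted p = 0.0320). Scaled to the poly-A controls it stood at -0.07, so its direction depends on the scaling.

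Of the 10 SLC25A37 probe sets, 8 were higher on both CEP701 arrays and 2 overlapped, where 36.3% of all genes were higher without overlap. Probe sets of 1 gene on the same arrays are not independent of each other. The 9 tested ones ranged from 0.32 to 1.43 on the log2 scale. The largest belonged to a probe set with 893 and 673 on the CEP701 arrays, against 227 and 350 with DMSO, which passed over all probe sets (adjusted p = 0.0460). The next 2 stood at 0.96 (adjusted p = 0.0504) and 0.87 (adjusted p = 0.0582). The probe set of highest signal thus had 1 of the smaller differences of its gene, as the plot of all probe sets shows. The probe set with the largest difference had 76.8 and 42.5 on PRMT5 shRNA arrays and 57.5 and 61.0 on scramble arrays, close to the median of all signals.

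**Figure D2:**
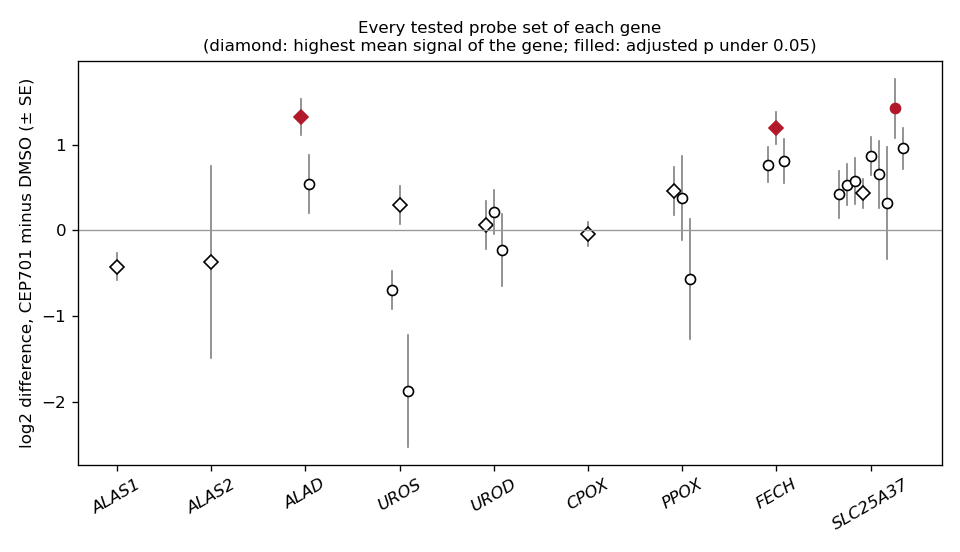
Log2 difference of CEP701 minus DMSO (vertical axis, ± SE) for each of the 26 tested probe sets of the 9 genes, with the probe set of highest mean signal as a diamond and those with adjusted p under 0.05 over 26725 probe sets filled. FECH's 3 and SLC25A37's 9 probe sets lie above 0, while those of UROS lie on both sides, from -1.87 to 0.29.

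UROS, which closes the porphyrin ring, was read by 3 probe sets that went different ways. The brightest had 1978 and 1861 on the CEP701 arrays, against 1650 and 1481 on the DMSO arrays, and was higher on both (log2 difference 0.29; limma adjusted p = 0.456). The second had 552 and 523 on CEP701 arrays, against 848 and 904 on DMSO arrays, and was lower on both (log2 difference -0.69; adjusted p = 0.101 over all probe sets). The dimmest had 28.4 and 8.02 on CEP701 arrays and 136 and 53.7 on DMSO arrays (log2 difference -1.87; adjusted p = 0.127). No direction can be given for UROS, since it depends on the probe set.

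UROD, which trims the ring's side chains, had the signals 30049 and 24115 on the CEP701 arrays, against 24836 and 26627 with DMSO. The groups overlapped, and the log2 difference of 0.07 had a 95% interval of -0.58 to 0.71 (limma adjusted p = 0.914). CPOX, the oxidase that follows, had 10533 and 11445 on CEP701 arrays and 11862 and 10774 on DMSO arrays. It overlapped as well, and its log2 difference of -0.04 had the narrowest interval of the 9, -0.36 to 0.28 (adjusted p = 0.888). PPOX, which makes protoporphyrin, had 1399 and 1164 on CEP701 arrays, against 909 and 941 on DMSO arrays. Both treated arrays were higher, with a log2 difference of 0.46 ± 0.29 (SE; 95% interval -0.18 to 1.10) that did not pass (adjusted p = 0.361) except in the drug arm alone (adjusted p = 0.0377). A dimmer PPOX probe set stood at -0.57. Scaled to the poly-A controls the brightest was at -0.04, and by that scaling UROS and UROD were at -0.21 and -0.44.

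PRMT5 shRNA was set against scramble to find what changes when the methyltransferase is lowered. No haem synthesis gene passed in limma, and none had an unadjusted p under 0.05, where 0.148% of all genes were called and 6.69% had such a p. With the replicate block, which called 1.74% of all genes, again none of the 9 passed, and 4 had an unadjusted p under 0.05, as did 2089 of all 14162 genes. The median over the members was 0.08, against 0.00345 over all genes. The groups did not overlap for 3 members, where 14.1% of all genes were higher and 16.1% lower without overlap.

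FECH had 2925 and 2018 on the PRMT5 shRNA arrays, against 1864 and 1915 on the scramble arrays. Both knockdown arrays were higher, but most of the difference lay in replicate 1, with log2 differences of 0.65 and 0.08 within the pairs (fit 0.36 ± 0.18 SE; 95% interval -0.05 to 0.78; adjusted p = 0.787). Another FECH probe set was also higher on both (0.42; limma adjusted p = 0.823 over all probe sets), and the dimmest overlapped (0.15). CPOX had 9023 and 8110 on the PRMT5 shRNA arrays, against 9689 and 11744 on the scramble arrays. Both were lower, at -0.10 and -0.53 within the pairs (fit -0.32; 95% interval -0.64 to 0.000429; unadjusted p = 0.0503 and adjusted p = 0.743 in limma). SLC25A37 had 1774 and 1749 on the PRMT5 shRNA arrays, against 1996 and 2483 on the scramble arrays. It was lower on both, at -0.17 and -0.50 within the pairs (fit -0.34; 95% interval -0.71 to 0.04; adjusted p = 0.775). Of its 10 probe sets this was the only 1 lower without overlap, and the 9 tested ones ranged from -0.36 to 0.38.

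The other 6 members overlapped between PRMT5 shRNA and scramble arrays. ALAD had 2342 and 1668 on PRMT5 shRNA arrays and 1517 and 1934 on scramble arrays. ALAS1 had 1492 and 1609 on PRMT5 shRNA arrays and 1823 and 1473 on scramble arrays. UROS had 3316 and 2059 on PRMT5 shRNA arrays and 2735 and 2237 on scramble arrays. In these 3 the ranges cross, and the order of the groups turns between the pairs. UROD had 10278 and 5661 on PRMT5 shRNA arrays and 7558 and 4768 on scramble arrays. PPOX had 1235 and 649 on PRMT5 shRNA arrays and 834 and 626 on scramble arrays. Both were higher within each pair, at 0.44 and 0.25 for UROD and 0.56 and 0.05 for PPOX on the log2 scale, with adjusted p = 0.894 and 0.909 in limma. ALAS2 ranged widest, with 383 and 19.6 on PRMT5 shRNA arrays and 187 and 192 on scramble arrays.

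**Figure D3:**
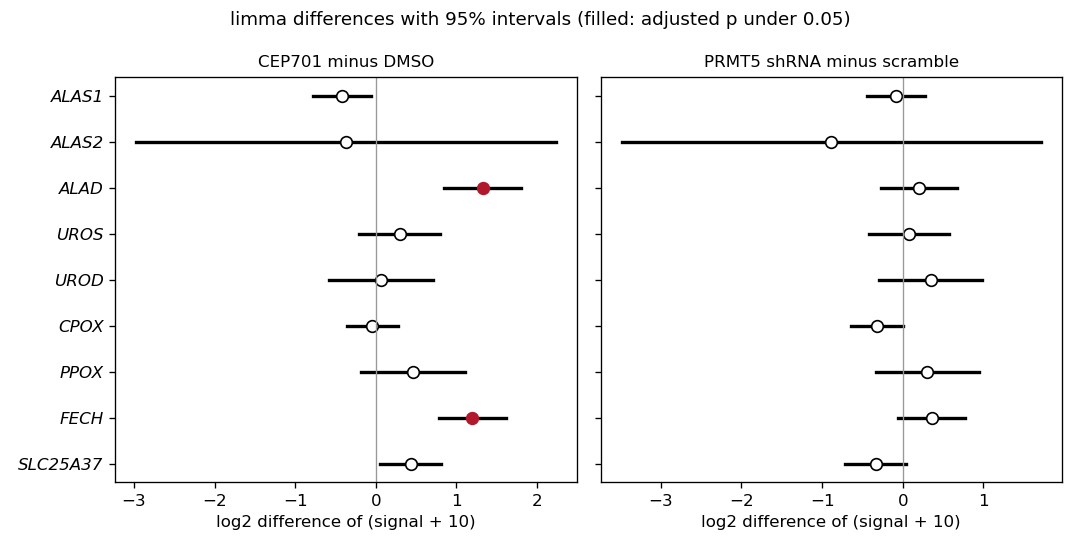
Log2 difference of signal plus 10 (horizontal axis) with its 95% interval for each gene (rows), for CEP701 minus DMSO on the left and PRMT5 shRNA minus scramble on the right, with filled points for adjusted p under 0.05. ALAD at 1.32 and FECH at 1.20 are the 2 filled points, and the interval of ALAS2 is the widest in both panels.

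The difference between the CEP701 effect and the PRMT5 shRNA effect was tested in the same fit. It was 1.12 for ALAD (95% interval 0.45 to 1.79), 0.83 for FECH (0.25 to 1.42) and 0.77 for SLC25A37 (0.24 to 1.30). None of the 3 passed in limma (adjusted p = 0.0959, 0.132 and 0.128), where 1.43% of all genes did. An unadjusted p under 0.05 was found for 3 members and for 19.9% of all genes. With the replicate block all 3 passed, with adjusted p = 0.0142 for ALAD, 0.0149 for FECH and 0.0181 for SLC25A37, in a fit that called 17.3% of all genes. With both arms blocked 16.2% were called, and 21.5% for CEP701 minus DMSO. Without scramble replicate 1, ALAD passed also without the block (1.29; adjusted p = 0.0483). Scaled to the poly-A controls the differences shrank to 0.58 for ALAD, 0.29 for FECH and 0.23 for SLC25A37 (adjusted p = 0.420, 0.692 and 0.737). They also depended on the probe set, with 0.17 for ALAD's dimmer one and 0.64 for the mean of both, 0.34 and 0.65 for FECH's others, and -0.06 to 1.46 for those of SLC25A37. The block follows the suffix of the shRNA titles, and the arms also differ in their marker content, whose part was not tested.

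The replicates of the shRNA arm were also set against each other. On the log2 scale UROD was 0.86 lower in replicate 2 than in replicate 1 of the PRMT5 shRNA group (difference -0.86) and 0.66 lower in the scramble group (-0.66). PPOX differed by -0.92 and -0.41 and UROS by -0.68 and -0.29 in the same order, and these 3 were the members lower in replicate 2 of both groups. Of all genes tested, 32.3% were lower in replicate 2 of both, a share near that of the members. AHSP differed the same way, by -2.27 and -1.36, as did SLC4A1, the anion exchanger of the red cell membrane, by -1.55 and -1.18. Only these 2 of the 6 measured erythroid markers were lower in replicate 2 of both groups. EPOR, GATA1 and GFI1B were lower there with PRMT5 shRNA and higher with scramble, and TAL1 was higher in both, by at most 0.28 in size. SLC4A1 also differed by 1.41 between the CEP701 replicates and 1.50 between the DMSO replicates, at signals of no more than 75.7. In the PRMT5 shRNA group 8 of the 9 members were lower in replicate 2, where 47.6% of all genes were, and in the scramble group 4 of 9, where 49.7% were. The actin ratio was 0.187 and 0.335 on the PRMT5 shRNA arrays and 0.141 and 0.179 on the scramble arrays.

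**Figure D4:**
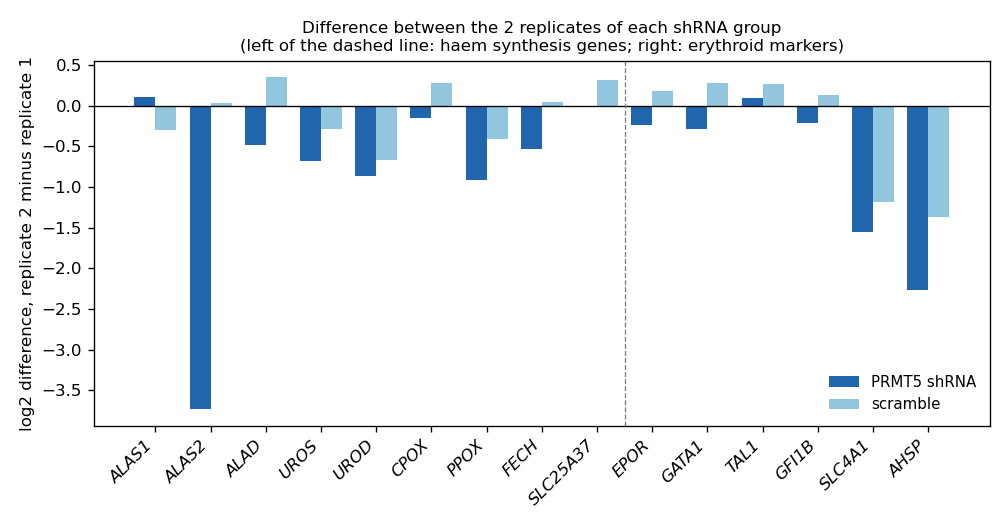
Log2 difference of replicate 2 minus replicate 1 (bars from 0) in the PRMT5 shRNA group and the scramble group, for the 9 haem synthesis genes and, right of the dashed line, the 6 measured erythroid markers. UROS, UROD, PPOX, AHSP and SLC4A1 are below 0 in both groups, and the ALAS2 bar of the PRMT5 shRNA group reaches -3.73.

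Between the arms, scramble arrays were set against DMSO arrays. They differ in vector, treatment, marker content and possibly more, which cannot be told apart, and 45.8% of all genes were called. Of the 9 members 4 were called. UROD was lower, with 7558 and 4768 on the scramble arrays against 24836 and 26627 on the DMSO arrays (log2 difference -2.10 ± 0.29 SE; limma adjusted p = 3.18e-04). A second UROD probe set had 2539 and 1868 on scramble arrays and 10825 and 10872 on DMSO arrays (-2.31), and the dimmest stood at -0.78 (adjusted p = 0.166 over all probe sets). ALAS1 was lower too, by -0.71 (adjusted p = 5.49e-03), a call lost without DMSO replicate 2 (log2 difference -0.63, adjusted p = 0.0603). ALAD was higher, at 1517 and 1934 on scramble arrays against 631 and 632 on DMSO arrays (1.43 ± 0.21 SE; adjusted p = 5.16e-04), but its dimmer probe set stood at -0.02. UROS was higher at its brightest probe set (0.66; adjusted p = 0.0355) and lower at the others (-0.43 and -0.61), and its call was lost without either CEP701 array, either DMSO array or scramble replicate 1, with log2 differences of 0.51 to 0.74 and adjusted p of 0.0600 to 0.174. The UROS call also ended under median scaling (0.35; adjusted p = 0.279), poly-A control scaling (0.26; adjusted p = 0.548), quantile normalization (adjusted p = 0.0546) and without the variance trend (adjusted p = 0.0861). Under poly-A control scaling ALAS1 stood at -1.11. This comparison uses the control arrays of both comparisons above.

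Beyond the enzymes, 52 genes that supply, use, break down or control haem were listed, and 45 were tested. With CEP701 3 were called higher and 2 lower, where 3.74% of all genes were called higher and 2.04% lower. The median was -0.07, against 0.10 over all genes. None of these 45 kept a call without any 1 of the 4 drug-arm arrays, in fits that called far fewer of all genes as well. Scaled to the poly-A controls 0 were called higher and 5 lower. By that scaling 86 of all 14162 genes were called higher and 984 lower. With the mean of probe sets 3 listed genes were called higher and 0 lower, and likewise without _x_at and _s_at probe sets. Both falls, of ACO1 and HCCS, thus lost their calls. Those fits called 347 and 492 of all genes higher and 190 and 248 lower. None of the 45 passed between PRMT5 shRNA and scramble in limma (median 0.08), and 1 did with the block in both arms, which called 1.50% of all genes. Among the 7 tested genes of iron uptake, storage and sensing, NCOA4, the receptor that delivers ferritin to lysosomes and frees its iron, rose to 17761 and 16366 on the CEP701 arrays, against 7953 and 8657 on the DMSO arrays (log2 difference 1.04; limma adjusted p = 9.23e-03). SLC40A1, ferroportin, the exporter of iron, rose with 20326 and 18478 on CEP701 arrays against 11533 and 12262 on DMSO arrays (0.70; adjusted p = 0.0379). ACO1, which as iron regulatory protein binds elements like that of ALAS2, fell with 946 and 1025 on CEP701 arrays against 1574 and 1907 on DMSO arrays (-0.81; adjusted p = 0.0305). SLC11A2, an importer of iron, was at -0.31 with CEP701 and 0.44 with PRMT5 shRNA, neither passing.

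Of 7 tested regulators, EIF2AK1, the kinase that haem inhibits and that halts globin translation when haem is short, rose to 4259 and 4277 on the CEP701 arrays, against 2638 and 2749 on the DMSO arrays (0.66; adjusted p = 0.0428). BACH1, a repressor that haem releases from DNA, was at 0.57 (adjusted p = 0.141), and GATA1 and NFE2, activators of erythroid genes, were at 0.18 each (adjusted p = 0.566 and 0.536). HCCS, which attaches haem to cytochrome c, was the 1 gene called lower of 3 listed for haem A and cytochrome c. It had 1244 and 1147 on CEP701 arrays against 2082 and 2325 on DMSO arrays (-0.88; adjusted p = 0.0477). COX15, which makes haem A, had 800 and 641 on PRMT5 shRNA arrays against 1372 and 1316 on scramble arrays (-0.90; adjusted p = 0.125).

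None of 9 mitochondrial partners passed with CEP701. TMEM14C, which moves protoporphyrinogen into the matrix, was closest at 0.59 (adjusted p = 0.0918), followed by SLC25A39, of the mitochondrial carrier family, at -0.50 (adjusted p = 0.125). SUCLA2, a subunit of an enzyme that interconverts succinate and succinyl-CoA, stood at -0.43, and ABCB10, which stabilises mitoferrin-1, at -0.27. None of 9 genes of haem breakdown, binding and transport passed either, with the haem oxygenases HMOX1 at -0.54 and HMOX2 at -0.55, biliverdin reductase BLVRA at -0.30, and the haem exporter FLVCR1 at -0.34. Of 10 iron-sulphur cluster genes none passed, with ISCA2 at 0.57 (adjusted p = 0.0778), HSPA9 at -0.68 (adjusted p = 0.121) and ISCA1 at -0.41. With PRMT5 shRNA these genes stood between -0.29 and 0.38, and none passed.

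The genes whose pattern was nearest to that of the 2 called members were found by the root mean square difference in log2 signal over the 8 arrays, with each arm's mean removed. For FECH they were COL20A1 at 0.091, FAM210B at 0.104 and CRB1 at 0.120, and for ALAD they were PIPOX at 0.112, HERC2P7 at 0.127 and IFT43 at 0.132. FAM210B, HERC2P7 and IFT43 passed with CEP701 (adjusted p = 0.0213, 0.0469 and 0.0175), and the other 3 did not. ALAD and FECH were themselves each other's nearest member, at 0.150. Both were chosen for their CEP701 call on these same arrays, so nearness to them favours genes with a like difference. The passing of the near genes is thus no further support.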

How the data were processed

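The deposited values are MAS5 signal intensity on a linear scale, 1 per probe set and array, which the authors computed by MAS5 (Affymetrix Expression Console), per the submitters' processing notes. From the values, each array had been scaled to a common mean with the lowest and highest 2% left out. Biotin-labelled cRNA was made from 200 ng of total RNA, per the labels. Probe sets number 54675, and 41097 name 1 gene by the platform annotation, whose symbols were updated through Entrez identifiers.

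Signals were not normalized further, 10 was added and log2 was taken. Probe sets whose signal passed 60.0, the overall median, on 2 or more arrays were kept, and the 1 of highest mean log2 signal stood for its gene, which left 14162 genes. Of the 28 probe sets of the 9 members, 26 passed this filter. All arrays were fitted as 4 group means with limma 3.58.1 (lmFit, then eBayes using a variance trend; R 4.3.3) and with Benjamini-Hochberg adjustment over all genes in a contrast. The script was tested on simulated data. Replicate numbers of the shRNA arrays follow a suffix shared by their titles, and deviations from the group means correlated across genes within these pairs (r = 0.323) but not in the drug arm (r = -0.0115). Promoter sequences are RefSeq's (GRCh38.p14), with 9 starts for 7 of the 9 members, UROS and SLC25A37 being without. Named genes are the 9 members, PRMT5, the genes of the 6 related lists that passed or had the 2 lowest p in a list, and the 3 genes nearest each called member. Members and lists were chosen with earlier results of these data known. With 2 arrays a group, their number limits the precision.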

Additional observations from a re-analysis of the deposited data

Results flagged for a closer look

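The effects of CEP701 and of PRMT5 shRNA differed by the limma test of the difference for 2 of the 45 related genes tested, where 1.43% of all genes were called. Neither call held without any 1 of the 4 drug-arm arrays or without the variance trend, since limma then called 0 genes for this difference (1879 to 2150 and 2430 at an unadjusted p under 0.05). The difference was 1.28 on the log2 scale for COX15 (adjusted p = 0.0382), with 0.38 for CEP701 minus DMSO and -0.90 for PRMT5 shRNA minus scramble, and the groups did not overlap in either arm. It was 1.23 for NCOA4 (adjusted p = 0.0322), with 1.04 for CEP701 minus DMSO and -0.19 for PRMT5 shRNA minus scramble, where the groups overlapped. Groups of 2 arrays were not searched for outlying arrays.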

How the results depend on the processing

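Counts are of genes that limma called, and each alternative changed 1 choice. For CEP701 minus DMSO, 2 members and 819 genes were called, 530 higher and 289 lower. Members numbered 1 with the mean of probe sets (537 genes in all) and 1 without _x_at and _s_at probe sets. They numbered 0 with eBayes without a trend (167 genes) and 0 under poly-A control scaling, an alternative chosen after seeing the data. In these last fits 2 and 4 of the 9 members had an unadjusted p under 0.05. Of all 14162 genes, 3133 and 4170 had such a p in the same order. All genes called numbered 489 with no filter and 453 under quantile normalization, and the split was 245 higher and 569 lower under median scaling and 86 and 984 under poly-A control scaling. In the drug arm alone 5 members and 3208 genes were called. The related lists, with 5 genes called for CEP701 minus DMSO, had 2 with no filter, 3 each under median scaling, under quantile normalization, with the mean of probe sets and without _x_at and _s_at probe sets, 0 without a trend (10 at an unadjusted p under 0.05) and 19 in the drug arm alone. These alternatives for the lists were chosen after seeing the data.

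The shRNA titles give a pairing by suffix, and the drug titles share only a number. With the replicate block in the shRNA arm, and in both arms, 4 members were called for CEP701 minus DMSO (3155 and 3040 genes) and 3 for the difference of effects (2456 and 2296 genes, against 203), while PRMT5 shRNA minus scramble had 0 members (247 and 212 genes, against 21) and PRMT5 passed at -1.52. The related lists had 17 genes called for CEP701 minus DMSO with the shRNA block. With both blocks they had 16, 1 for PRMT5 shRNA minus scramble and 15 for the difference. For PRMT5 shRNA minus scramble 32 genes were called with 50 added, 0 without a trend (934 at an unadjusted p under 0.05) and 0 in that arm alone (592 at that p). For the difference of effects they numbered 132 with no filter, 124 under median scaling (75 higher and 49 lower, against 157 and 46), 113 under quantile normalization, 117 with the mean of probe sets, 0 without a trend (2430 at that p) and 40 under poly-A control scaling (20 each way). For scramble minus DMSO the split was 2528 higher and 4051 lower under median scaling and 2020 and 3744 under poly-A control scaling, against 3608 and 2878.

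Leaving out 1 array at a time gave 0 to 2 members for CEP701 minus DMSO (6 to 1233 genes), with 0 without CEP701 replicate 1, CEP701 replicate 2, DMSO replicate 1 or DMSO replicate 2 (2 to 4 members at an unadjusted p under 0.05), and 0 to 6 genes of the related lists. It gave 3 to 27 genes for PRMT5 shRNA minus scramble, 0 to 1 members (0 to 808 genes) for the difference, the 0 genes without any 1 drug-arm array (1879 to 2150 at that p), and 2 to 4 members for scramble minus DMSO, the 2 without DMSO replicate 2. The direction also turned for members that had not passed. For CEP701 minus DMSO the range was -1.44 to 0.70 for ALAS2, -0.093 to 0.22 for UROD and -0.11 to 0.027 for CPOX. For PRMT5 shRNA minus scramble it was -0.23 to 0.073 for ALAS1, -2.75 to 0.98 for ALAS2, -0.038 to 0.45 for ALAD, -0.26 to 0.42 for UROS, -0.085 to 0.77 for UROD and -0.15 to 0.76 for PPOX.

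Other turns of direction, for CEP701 minus DMSO, were UROD at -0.15 under median scaling, CPOX at 9.43e-05 under quantile normalization, and UROS at -0.76 with the mean of probe sets and -0.69 without _x_at and _s_at probe sets. Under poly-A control scaling UROS stood at -0.21, UROD at -0.44, PPOX at -0.042 and SLC25A37 at -0.069. By other probe sets UROS stood at -0.69 and -1.87, UROD at -0.23 and PPOX at -0.57. For PRMT5 shRNA minus scramble, other probe sets put UROS at -0.20, PPOX at -0.25 and SLC25A37 at 0.13 and 0.38, the first 2 also without _x_at and _s_at probe sets. For the difference of effects 1 probe set put SLC25A37 at -0.056. For scramble minus DMSO, ALAD stood at -0.024 by its other probe set, and UROS at -0.43 and -0.61 by its others, -0.13 with their mean and -0.43 without _x_at and _s_at probe sets. The causes were not tested.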
